A study of Mus musculus with 26 samples.

Results

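EpCAM-negative tumour cells were compared with EpCAM-positive tumour cells from mammary tumours grown in mice without CD4 and CD8 T cells. The libraries were chosen by their titles, 6 of each fraction and 12 of the 26 libraries in the series, and all 16637 genes that passed a filter on low counts were tested. All tumours came from E-A14, a Her2-expressing mouse mammary tumour line that is a single cell line, placed in the fourth mammary fat pad of FVB/N mice aged 6 to 8 weeks. The mice of both fractions received antibodies against CD4 and CD8a, 100 µg of each in 2 injections a week that started 2 weeks before the tumour cells. Tumours were taken at day 20, and live cells that carried Her2 and lacked CD90, CD105 and CD45 were sorted by EpCAM. The comparison addresses how the EpCAM-negative cells of a tumour differ from its EpCAM-positive cells when both arise without T cells. The other groups of the series were used for the shared spread. They were the same fractions from control tumours, 6 libraries each, and 2 libraries of cultured E-A14 cells. Control tumours came from mice given rat IgG2a and IgG2b and were taken at day 47. They also served a test of the difference for each gene and a test of the Epcam share.

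EpCAM is an adhesion protein of the epithelial cell surface, and cells that pass through an epithelial-mesenchymal transition lose it together with E-cadherin, tight junctions and desmosomes. The transition is driven by transcription factors of the ZEB, SNAI and TWIST families, which bind E-box motifs in promoters of epithelial genes and repress them. GRHL2, OVOL1, OVOL2 and the splicing regulators ESRP1 and ESRP2 work in the other direction and hold cells in the epithelial state. Mesenchymal tumour cells make vimentin, fibronectin and collagens, and a tumour can hold cells at many points between both ends.

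Promoter sequences of 5 epithelial genes are shown first, because 29 of the 32 members of the epithelial junction and polarity list were lower and the repressors of the transition bind E-boxes (CACCTG or CAGGTG, which are the same site read on opposite strands). They are Epcam and 4 members of that list that hold several E-boxes, chosen after their values were seen. Each run is the 250 bases before the transcription start, 5′ to 3′ on the strand of the gene, from RefSeq on build GRCm38.p6, and the capitals mark the E-boxes. Epcam lies at chr17:87635729-87635978 on the plus strand, with E-boxes 187 and 19 bases before the start. Crb3, a polarity protein of the apical membrane, lies at chr17:57061951-57062200 on the plus strand. Lsr, a receptor that builds tricellular junctions, lies at chr7:30973470-30973719 on the minus strand. Ap1m2, an adaptor for sorting to the basolateral membrane, lies at chr9:21312334-21312583 on the minus strand. Rab25, a small GTPase of epithelial recycling, lies at chr3:88548280-88548529 on the minus strand.
Epcam: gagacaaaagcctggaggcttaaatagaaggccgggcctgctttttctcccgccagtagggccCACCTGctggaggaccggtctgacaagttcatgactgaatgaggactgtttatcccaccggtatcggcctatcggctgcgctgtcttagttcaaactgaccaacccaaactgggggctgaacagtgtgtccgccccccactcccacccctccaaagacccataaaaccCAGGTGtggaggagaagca
Crb3: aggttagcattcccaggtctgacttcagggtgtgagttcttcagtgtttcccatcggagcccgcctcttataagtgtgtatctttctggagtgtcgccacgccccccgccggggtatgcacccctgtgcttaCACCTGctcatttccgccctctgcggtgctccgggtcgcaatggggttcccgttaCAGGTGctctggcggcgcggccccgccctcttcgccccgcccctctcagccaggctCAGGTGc
Lsr: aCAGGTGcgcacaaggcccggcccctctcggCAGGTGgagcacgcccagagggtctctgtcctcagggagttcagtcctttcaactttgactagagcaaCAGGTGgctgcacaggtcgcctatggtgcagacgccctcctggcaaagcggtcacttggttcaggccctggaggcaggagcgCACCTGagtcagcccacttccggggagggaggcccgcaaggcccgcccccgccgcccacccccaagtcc
Ap1m2: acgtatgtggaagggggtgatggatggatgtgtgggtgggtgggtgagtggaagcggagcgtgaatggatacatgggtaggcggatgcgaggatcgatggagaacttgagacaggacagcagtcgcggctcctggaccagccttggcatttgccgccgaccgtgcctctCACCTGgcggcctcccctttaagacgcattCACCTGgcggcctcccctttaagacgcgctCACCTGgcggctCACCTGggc
Rab25: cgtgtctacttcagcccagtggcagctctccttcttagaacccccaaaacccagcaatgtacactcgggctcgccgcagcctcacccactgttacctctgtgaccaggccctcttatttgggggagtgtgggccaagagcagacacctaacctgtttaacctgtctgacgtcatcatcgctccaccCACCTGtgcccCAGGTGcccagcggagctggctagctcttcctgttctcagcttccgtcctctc
Crb3, Lsr and Ap1m2 each had more E-boxes than Epcam in the window of 300 bases that also takes in 50 bases after the start, with 4 each. Of the 32 members of the junction and polarity list, 22 had a promoter in the table, 16 of these (72.7%) held at least 1 E-box and 11 (50.0%) held at least 2. Among all 27025 genes of the table the shares were 22.6% and 3.32%, and among the 11456 tested genes that matched they were 21.4% and 3.11%. In the keratin and desmosome list 7 of 9 matched genes held an E-box, and in the list of epithelial regulators 4 of 12 did. The mesenchymal list had 2 of 17 and the fibrillar collagen list 1 of 21. A match to these letters is a description of the sequence and not of binding.

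The 12 libraries held 17559520 to 25601999 counts and 16852 to 18596 genes with at least 1 count, and 3 counts correspond to 0.116 to 0.167 CPM (counts scaled to the library's size). Levels below are CPM scaled by the trimmed mean of M values (TMM), given as the median of the 6 libraries with the lowest and highest in brackets. EpCAM-positive values come first, and a log2 fold change above 0 means higher in the EpCAM-negative cells. Errors on fold changes are standard errors, and adjusted p-values come from edgeR's quasi-likelihood test with Benjamini-Hochberg adjustment over all 16637 genes. The test did not pair the libraries except where a block by library number is named. On the 500 most variable genes the first principal component held 91.5% of the variance and separated the fractions without overlap. EpCAM-negative library 2 stood farthest from the EpCAM-positive libraries, at 41.5, and library 1 nearest, at 16.5. The EpCAM-positive libraries lay between −30.7 and −21.3, with library 2 nearest to the other fraction.

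Epcam transcript was present in every EpCAM-negative library, at 284, 40.0, 157, 115, 87.1 and 159.9 CPM in libraries 1 to 6, against 2482, 2038, 2705, 2647, 2317 and 2432 CPM in the EpCAM-positive libraries of the same numbers. The fractions did not overlap, library 1 had the most Epcam among the EpCAM-negative libraries and library 2 the least (log2 fold change −4.12 ± 0.30, adjusted p = 1.21e-10). As a share of the mean EpCAM-positive level, Epcam stood at 11.6%, 1.64%, 6.42%, 4.73%, 3.57% and 6.56% in EpCAM-negative libraries 1 to 6, with a mean of 5.76% ± 3.42 (SD, n = 6). In the control tumours the same share was 0.138% ± 0.0462 (SD, n = 6), from 0.0899% to 0.202%. All 6 depleted values lay above all 6 control values (exact two-sided permutation test, p = 0.00216, the smallest that 6 against 6 allows). In bulk libraries, few cells with much Epcam and many cells with little cannot be told apart.

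The Her2 transgene of the line, RatActivatedNeu, was measured from 487 (389 to 745) to 454 CPM (312 to 640.3), and the ranges overlapped. Its log2 fold change of −0.26 ± 0.15 did not pass the test (adjusted p = 0.219), but it was lower in 6 of 6 numbered pairs and passed with the library number as a block (adjusted p = 0.0108). The mouse gene Erbb2 was lower, from 156 (108 to 179.6) to 70.3 CPM (63.5 to 80.1), with no overlap (log2 fold change −1.12 ± 0.09, adjusted p = 6.32e-10). Reads that match both sequences cannot be assigned with certainty. Of the genes sorted against, Thy1 (CD90) had 8 counts over the 12 libraries and was not tested, Eng (CD105) was measured from 1.16 (0.710 to 2.05) to 1.68 CPM (1.35 to 1.92) and Ptprc (CD45) from 3.47 (1.87 to 9.91) to 5.27 CPM (1.07 to 7.27), and neither of these differed past the threshold.

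**Figure D1:**
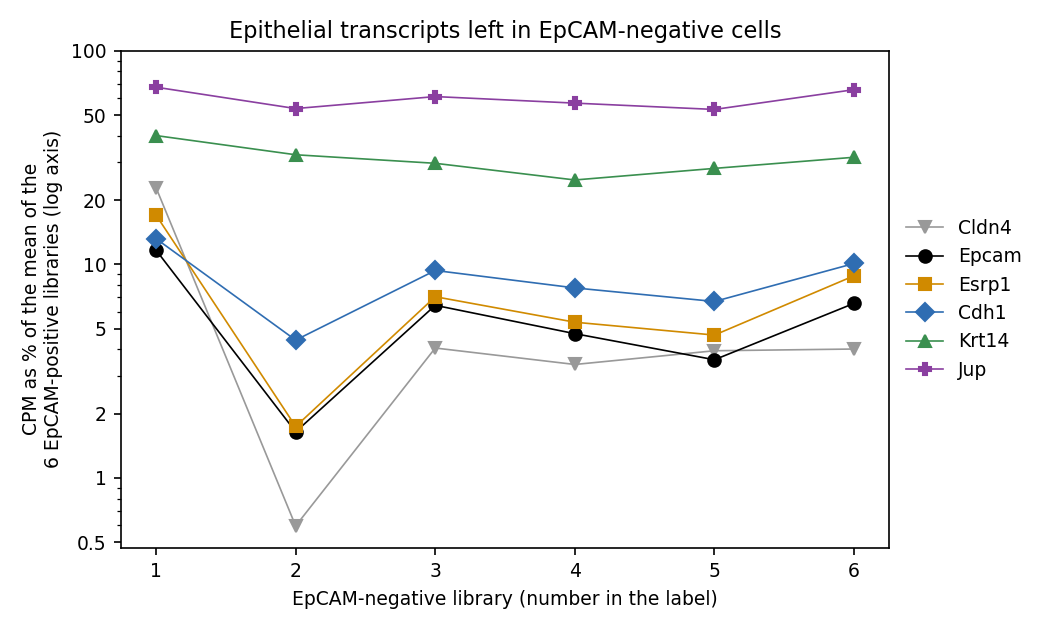
Level of 6 epithelial genes in each EpCAM-negative library as a percent of the mean of the 6 EpCAM-positive libraries (log axis). Epcam, Esrp1, Cldn4 and Cdh1 were highest in library 1 and lowest in library 2, and Krt14 and Jup were at 24.8% or more in all 6 libraries.

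Between the fractions 2365 genes were higher in the EpCAM-negative cells (14.2% of those tested) and 2373 were lower (14.3%). With a change of at least 1 on the log2 scale the counts were 753 higher (4.53%) and 1009 lower (6.06%). For 1182 genes all 6 EpCAM-negative libraries lay above all 6 EpCAM-positive libraries (7.1%), and for 1405 they lay below (8.45%). The median log2 fold change over all tested genes was 0.01. The 14.2% higher and 14.3% lower are the shares to set beside the list counts below. A list count near them is the rate over all genes.

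The genes with the largest changes were taken only from those that passed the test and whose fractions did not overlap. Larger changes with overlap may therefore be left out. Within that choice, the largest rises among genes at 10 CPM or more were in matrix, membrane and signalling genes. Col5a3, a chain of the minor fibrillar collagen V, went from 3.10 (0.155 to 8.41) to 170.0 CPM (129.8 to 200.3) (log2 fold change 5.57 ± 0.60, adjusted p = 6.34e-08). Olfml2b, a secreted proteoglycan-binding protein, went from 1.51 (0.519 to 3.95) to 58.4 CPM (29.9 to 75.5) (5.04 ± 0.35), and the water channel Aqp1 went from 6.97 (2.73 to 10.2) to 176 CPM (149 to 269.7) (4.82 ± 0.60). The EpCAM-positive means of these 3 genes were still 2.14%, 3.08% and 3.53% of the EpCAM-negative means. The tetraspanin Tspan15 went from 0.222 (0.0495 to 1.98) to 26.8 CPM (7.64 to 40.6) (5.53 ± 0.67, or 6.63 without EpCAM-positive library 4), the sulfotransferase Chst1 from 0.162 (0 to 1.20) to 12.1 CPM (5.00 to 16.2) (4.84 ± 0.80, or 5.64 without EpCAM-positive library 5) and the stromal surface glycoprotein Cd248 from 0.344 (0 to 1.56) to 13.0 CPM (10.2 to 21.9) (4.75 ± 0.50, or 5.39 without EpCAM-positive library 2). The protocadherin Pcdh19 went from 2.34 (0.266 to 7.74) to 63.5 CPM (46.9 to 75.0) (4.50 ± 0.56, or 5.12 without EpCAM-positive library 2). Cck, Slitrk6, Pi15, Dlx3 and Itgb7 completed the 12 largest, with log2 fold changes of 4.62 ± 1.14, 4.62 ± 0.56, 4.59 ± 0.44, 4.54 ± 0.62 and 4.54 ± 0.69 on EpCAM-positive medians below 1 CPM. For Cck, Pi15, Dlx3 and Itgb7 leaving out 1 EpCAM-positive library (5, 5, 3 and 2) raised these to 5.22, 5.40, 5.19 and 5.55.

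Among genes at 200 CPM or more the largest rises were in Col6a1, Nr4a1, Tnfaip2, 1190002N15Rik, Ptgs2, Dab2, Sgk1 and Klf2. Dab2, an endocytic adaptor, went from 46.4 (40.5 to 57.3) to 217 CPM (175 to 253) (2.21 ± 0.24), and 1190002N15Rik from 48.8 (35.8 to 50.8) to 223 CPM (158 to 288) (2.25 ± 0.12). Sgk1, a serum- and steroid-induced kinase, went from 352 (213 to 514) to 1367 CPM (809.8 to 2123) (1.96 ± 0.20). Lack of overlap was a condition of the choice here too. Nr4a1, Ptgs2 and Klf2 are induced within minutes to hours of a stimulus and are described with the other inducible genes.

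The largest falls, chosen under the same condition of no overlap, included genes of cell membranes, keratins and a collagen. Atp8b1, an apical phospholipid flippase, went from 29.0 (16.3 to 41.0) to 1.29 CPM (0.0397 to 2.10) (log2 fold change −4.86 ± 0.48, adjusted p = 1.31e-08). Tmprss2, a membrane serine protease, went from 11.1 (9.001 to 15.0) to 0.230 CPM (0 to 1.38) (−4.78 ± 0.52, or −5.64 without EpCAM-negative library 3), and the laminin receptor Bcam from 11.1 (8.07 to 15.0) to 0.432 CPM (0.102 to 1.31) (−4.30 ± 0.49). The thioesterase gene Them5, the ion transport regulator Fxyd3 and Klhdc7a had log2 fold changes of −4.78 ± 0.54, −4.10 ± 0.39 and −4.03 ± 0.48. At 200 CPM or more, Lcn2, the iron-carrier binding protein lipocalin 2, went from 575 (399 to 714) to 31.4 CPM (9.64 to 84.0) (−3.94 ± 0.42), and Lypd3, a surface protein bound to the membrane by a lipid anchor, from 215 (118 to 241) to 14.0 CPM (3.88 to 24.7) (−3.77 ± 0.51). Galnt3, which starts mucin-type glycosylation, went from 209 (174 to 265) to 19.3 CPM (5.98 to 31.6) (−3.60 ± 0.27), and the proprotein convertase Pcsk6 from 268 (215 to 296) to 20.9 CPM (9.47 to 39.6) (−3.59 ± 0.32). EpCAM-negative library 2 gave the lowest value for 8 of these 10 genes, shared with other libraries at 0 for Tmprss2, as it did for Epcam.

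**Figure D2:**
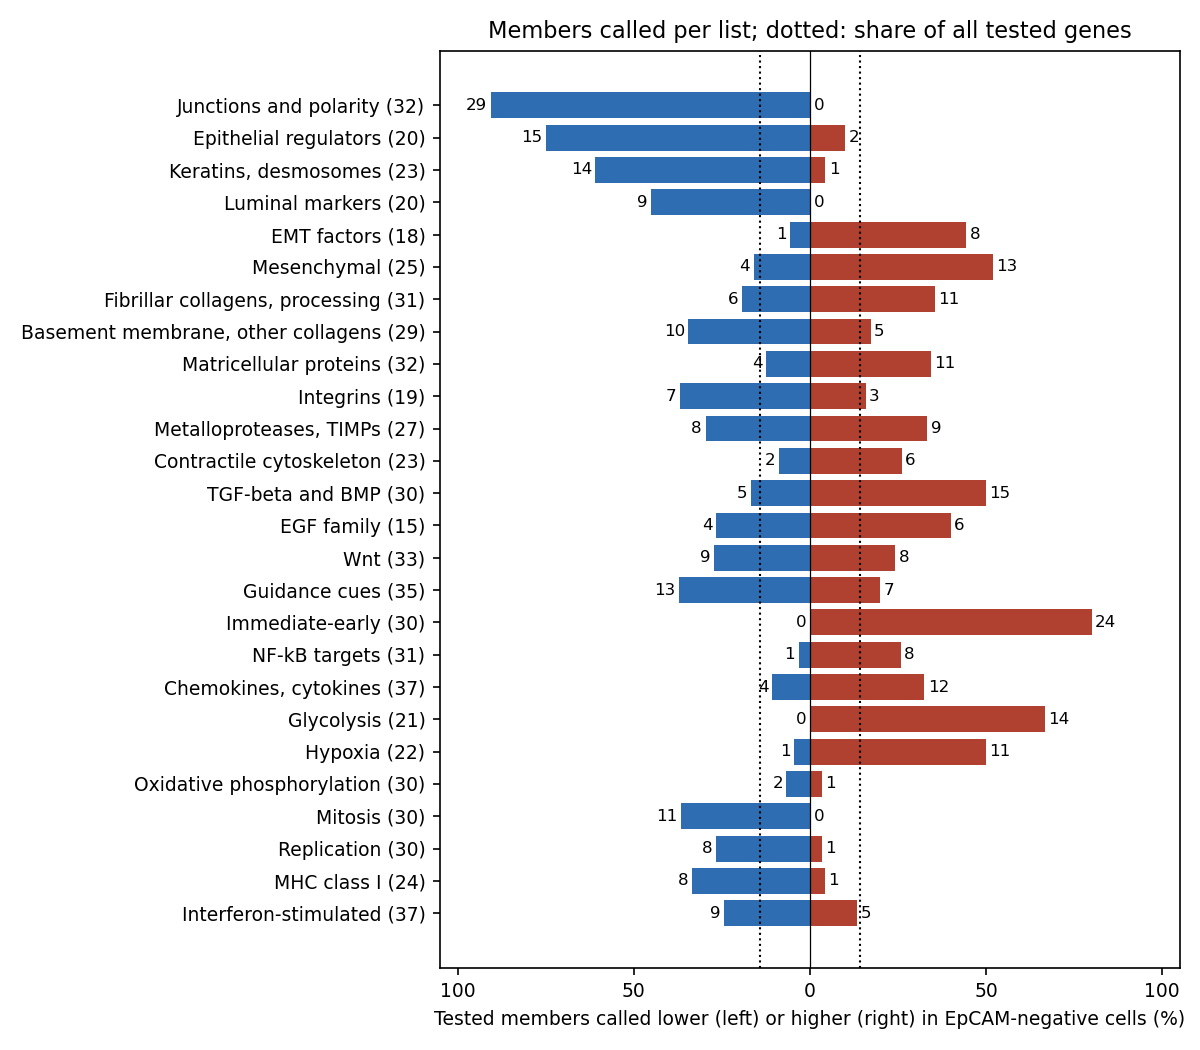
Percent of the tested members of 26 gene lists that were lower (bars to the left) or higher (bars to the right) in the EpCAM-negative libraries at an adjusted p under 0.05. The dotted lines mark the 14.3% lower and 14.2% higher among all tested genes, and the junction list reaches 29 of 32 members lower.

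Of the 18 tested transcription factors that drive the transition, 8 were higher, 1 was lower and 9 did not pass. The median log2 fold change was 0.41 (0.074 when only the 3 EpCAM-negative libraries with the least Epcam were used). Zeb1, which represses E-cadherin, went from 4.73 (1.45 to 7.41) to 86.3 CPM (64.3 to 99.2) (log2 fold change 4.22 ± 0.25, adjusted p = 3.96e-12). All 6 EpCAM-negative libraries lay far above the EpCAM-positive ones, in which the mean was still 5.35% of the EpCAM-negative mean, from 1.69% to 8.59%. Its relative Zeb2 went from 9.51 (6.43 to 14.8) to 61.8 CPM (54.9 to 82.3) (log2 fold change 2.73 ± 0.27, adjusted p = 1.65e-08), again with no overlap, and EpCAM-positive library 2 was the highest of its fraction for both genes. Snai1 went from 9.59 (7.77 to 11.9) to 19.4 CPM (15.3 to 25.5) (log2 fold change 1.00 ± 0.14, adjusted p = 2.64e-06), Tcf4 from 33.0 (27.3 to 36.8) to 52.4 CPM (43.6 to 64.4) (0.72 ± 0.11) and Runx2 from 23.2 (16.6 to 27.1) to 30.9 CPM (28.0 to 35.2) (0.46 ± 0.10), all without overlap. Fosl1 and Hmga2, an AP-1 subunit and a chromatin architecture protein, also passed, at 1.09 ± 0.24 and 0.77 ± 0.21.

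The other classical drivers did not separate the fractions, and apart from Snai2 they lay close to or under the detection floor. Snai2 was measured from 3.53 (2.57 to 6.17) to 4.08 CPM (2.20 to 5.98) (log2 fold change 0.07 ± 0.29, adjusted p = 0.905), Twist1 from 0.0388 (0 to 0.149) to 0.0218 CPM (0 to 0.301) and Prrx1 from 0.311 (0.149 to 0.750) to 0.0503 CPM (0 to 0.842), and none of these differed past the threshold. Twist2 passed, but on 0 to 0.358 CPM in EpCAM-negative and 0 to 0.0557 CPM in EpCAM-positive libraries, so no fold is given. The call was lost with the block (adjusted p = 0.123) and without EpCAM-positive library 1, 3, 4, 5 or 6 (adjusted p up to 0.0652). The member that was lower, Snai3, also lay near the floor, from 0.991 (0.321 to 1.50) to 0.151 CPM (0 to 0.502).

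Of the 20 tested regulators that hold cells in the epithelial state, 15 were lower and 2 were higher, with a median log2 fold change of −2.92. In the 3 EpCAM-negative libraries with the least Epcam, 16 were lower. Grhl2, which activates E-cadherin and opposes Zeb1, went from 118 (99.9 to 132) to 16.3 CPM (3.45 to 27.7) (log2 fold change −2.78 ± 0.36, adjusted p = 1.03e-06). Esrp1 and Esrp2, which direct epithelial splicing, went from 128 (114 to 151) to 8.24 CPM (2.31 to 22.6) (−3.76 ± 0.37) and from 53.4 (44.9 to 62.2) to 4.01 CPM (0.0436 to 5.32) (−4.00 ± 0.37). The ETS factors Ehf and Elf5 went from 10.2 (2.90 to 15.5) to 0.509 CPM (0.0436 to 1.21) (−4.02 ± 0.45) and from 4.88 (3.17 to 5.55) to 0.199 CPM (0 to 0.632) (−4.59 ± 0.48, or −5.36 without EpCAM-negative library 1). Ovol1 went from 4.61 (3.59 to 6.74) to 0.502 CPM (0 to 0.947) (−3.32 ± 0.54) and Ovol2 from 4.32 (2.71 to 6.85) to 0.312 CPM (0 to 1.16) (−3.33 ± 0.51), both to values near the floor. For these 7 genes the fractions did not overlap in any library.

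Not every epithelial regulator followed. Gata3, a luminal factor, changed less, from 124 (93.9 to 155) to 85.9 CPM (67.8 to 97.1) (log2 fold change −0.53 ± 0.11, adjusted p = 0.000626), and its ranges overlapped. Klf4 and Klf5, the 2 members that were higher, went from 40.7 (33.1 to 44.4) to 86.4 CPM (63.7 to 111) and from 63.1 (50.7 to 69.3) to 82.4 CPM (62.0 to 97.3), with log2 fold changes of 1.14 ± 0.21 and 0.39 ± 0.11. Trp63, the basal cell factor p63, was measured from 33.2 (22.3 to 39.2) to 42.0 CPM (21.8 to 56.2) and did not pass (adjusted p = 0.105).

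**Figure D3:**
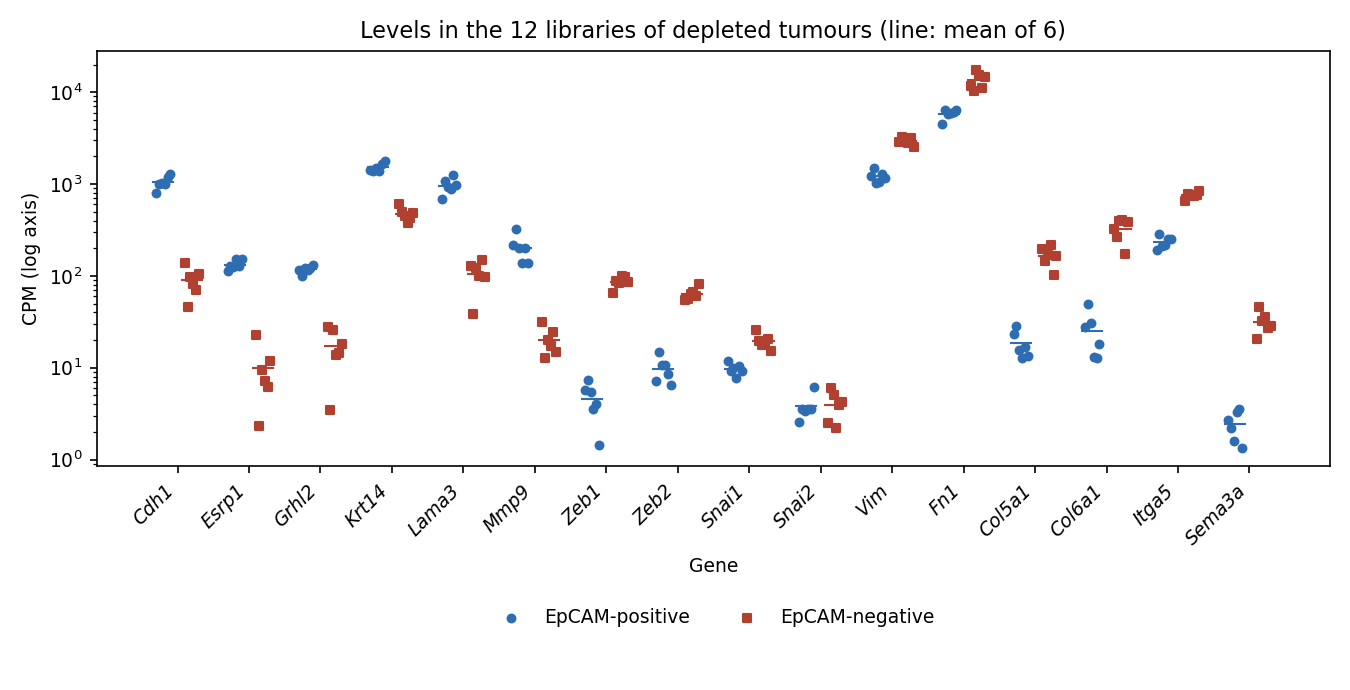
CPM of 16 genes in each of the 6 EpCAM-positive and 6 EpCAM-negative libraries (log axes, lines at the mean). Points of the fractions do not overlap for Cdh1, Esrp1, Grhl2, Lama3, Mmp9, Zeb1, Zeb2, Col5a1 and Sema3a, and overlap for Snai2.

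Of the 32 junction and polarity genes 29 were lower, none was higher and 3 did not pass, with a median log2 fold change of −2.96. The same number was lower in the 3 EpCAM-negative libraries with the least Epcam. E-cadherin (Cdh1), the adhesion molecule of adherens junctions, went from 1015 (789.6 to 1281) to 89.9 CPM (46.4 to 138) (log2 fold change −3.54 ± 0.21, adjusted p = 3.96e-12). Spint2 and St14, an inhibitor of membrane serine proteases and the protease matriptase, went from 708 (640.3 to 858) to 108 CPM (90.4 to 188) (−2.64 ± 0.17) and from 687 (598 to 756) to 51.0 CPM (19.3 to 89.5) (−3.73 ± 0.26). Prss8, the protease prostasin, went from 36.6 (29.7 to 38.1) to 2.97 CPM (1.09 to 4.37) (−3.62 ± 0.25), and Cxadr, an adhesion protein of tight junctions, from 439 (333 to 487) to 96.3 CPM (67.5 to 116) (−2.17 ± 0.14). In each gene every EpCAM-negative library lay below every EpCAM-positive library.

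The tight junction claudin Cldn4 went from 318 (159 to 415) to 12.2 CPM (1.83 to 70.3), with the highest EpCAM-negative value in library 1 (−3.96 ± 0.57, or −4.99 without it). Myh14, a non-muscle myosin of epithelia, went from 38.5 (25.6 to 61.1) to 2.77 CPM (0.131 to 4.21) (−4.16 ± 0.43), and Pard6b, a polarity scaffold, from 40.8 (31.5 to 44.4) to 2.47 CPM (1.18 to 5.95) (−3.58 ± 0.33). The genes whose promoters are printed above were lower too: Crb3 went from 11.4 (8.20 to 11.6) to 0.761 CPM (0.436 to 2.05) (−3.43 ± 0.32), Lsr from 86.7 (69.8 to 97.2) to 5.59 CPM (2.53 to 12.4) (−3.82 ± 0.27), Ap1m2 from 111 (97.9 to 115) to 6.85 CPM (1.13 to 19.2) (−3.80 ± 0.39) and Rab25 from 90.1 (71.4 to 104) to 6.59 CPM (3.27 to 15.3) (−3.58 ± 0.26). None of these 7 genes overlapped between the fractions.

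The epithelial transcripts that remained in the EpCAM-negative libraries were set beside Epcam as a share of their mean EpCAM-positive level. Of the 29 lower junction genes, 1 had a share below that of Epcam, 15 lay between Epcam's share and 2 times that share, and 13 lay above it. The shares ran from 5.61% to 65.2% with a median of 10.6%. EpCAM-negative library 2, with the least Epcam, was the lowest for 25 of the 29 genes, and library 1, with the most, was the highest for 16. Among the 15 lower epithelial regulators the median share was 10.0% and library 2 was the lowest for 13, ties included. Cdh1 stood at 8.58%, Esrp1 at 7.44% and Grhl2 at 14.6%, and all 3 were highest in library 1 and lowest in library 2. The part of residual EpCAM-positive cells in these levels was not tested.

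Fold changes of lower genes were larger when only the 3 EpCAM-negative libraries with the least Epcam (2, 4 and 5) were used. Of the 134 named genes that were lower in all 6 libraries, 32 had a fall that was larger by over 1.5 times and none one that was smaller by as much, and of 104 that were higher none moved so far either way. Epcam itself was at −4.93, a larger fall that follows from choosing the libraries by Epcam. The same holds for genes that varied with Epcam across the libraries, so these values describe the libraries and are not a test. Among epithelial regulators Esrp1 was at −4.69, Esrp2 at −4.65, Grhl2 at −3.49, Ovol2 at −4.41 and Elf5 at −6.22. Among junction genes Cldn4 was at −5.25, Myh14 at −4.82 and Pard6b at −4.29, and among keratins Krt79 at −6.12 and Krt15 at −4.81. Of the largest falls Tmprss2 was at −6.39, Klhdc7a at −5.50, Atp8b1 at −5.46, Them5 at −5.36, Lcn2 at −4.95, Lypd3 at −4.72, Fxyd3 at −4.71, Pcsk6 at −4.29 and Galnt3 at −4.21. Genes described below that moved as far were Ltf at −5.41, Col11a1 at −5.05, Erbb3 at −4.19, Il23a at −4.14, Nectin4 at −4.08, Notch3 at −4.01, Vtcn1 at −3.93, Nkd2 at −3.63 and Fbln5 at −3.33. The calls of 8 named lower genes and 4 named higher genes were lost with the fewer libraries, and no named gene that was called changed direction.

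Keratins and desmosomes, the intermediate filaments and spot junctions of epithelia, changed less evenly. Of 23 tested members 14 were lower, 1 was higher (Pkp1) and 8 did not pass, with a median log2 fold change of −1.68, and 16 were lower in the 3 EpCAM-negative libraries with the least Epcam. Krt14, a basal keratin, went from 1453 (1398 to 1793) to 467 CPM (378 to 609.8) (log2 fold change −1.68 ± 0.15, adjusted p = 4.11e-09). No EpCAM-negative library reached the EpCAM-positive range, yet the level kept 31.2% of the EpCAM-positive mean. The luminal keratins differed among themselves. Krt7 went from 3609 (2980.0 to 3836) to 349 CPM (208 to 672) (−3.20 ± 0.49), Krt18 from 3239 (2982 to 3511) to 2199 CPM (1706 to 2414) (−0.60 ± 0.12), and Krt8 was measured from 2028 (1717 to 2187) to 1808 CPM (1464 to 1938) and did not pass (adjusted p = 0.297). Krt79 and Krt15 had small shares left, from 33.5 (20.4 to 46.1) to 1.44 CPM (0.0436 to 4.26) (−4.51 ± 0.50, or −5.14 without EpCAM-negative library 1) and from 33.4 (14.1 to 44.1) to 1.61 CPM (0.0873 to 3.68) (−4.14 ± 0.51). Krt5 lay near the floor in both fractions, from 0.423 (0.0519 to 0.891) to 0.0526 CPM (0 to 0.345).

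Desmosomal and linked plaque proteins ranged from large to small differences. Desmoplakin (Dsp), which ties keratins to the membrane, went from 259 (216 to 289) to 81.0 CPM (44.0 to 116) (−1.67 ± 0.18), plakophilin Pkp3 from 205 (175 to 236) to 40.4 CPM (28.7 to 54.6) (−2.34 ± 0.14) and plakoglobin Jup from 1011 (952 to 1262) to 618 CPM (557 to 708) (−0.75 ± 0.08). All 3 were separated between the fractions, and Jup kept 59.6% of its EpCAM-positive level. Over the 14 lower members the remaining share ran from 4.54% to 72.2% with a median of 26.2%, 11 were above 2 times the share of Epcam, and library 2 was the lowest for 8.

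Of 20 tested luminal markers 9 were lower and none was higher, with a median of −0.57. The milk protein gene Ltf went from 39.9 (25.2 to 60.6) to 2.49 CPM (0 to 10.2) (−3.61 ± 0.57, or −4.33 without EpCAM-negative library 1). Wfdc18, a whey acidic protein relative, went from 2.41 (0.891 to 4.95) to 0.139 CPM (0 to 0.205), which is near the floor, and Elf5 and Gata3 are given above. Of 16 tested basal markers 3 were higher and 3 were lower. Igfbp4, which binds insulin-like growth factors, went from 10.4 (6.66 to 13.6) to 71.8 CPM (50.2 to 106) (log2 fold change 2.88 ± 0.22, adjusted p = 2.19e-10), with no overlap. Smooth muscle actin Acta2 went from 3.26 (1.16 to 4.48) to 9.66 CPM (7.68 to 14.9) (1.81 ± 0.49), and Actg2 was higher on low values, from 0.112 (0.0557 to 0.533) to 1.13 CPM (0.552 to 1.53). Krt14, the myosin kinase Mylk and Procr were lower, at −1.68, −0.95 ± 0.18 and −0.86 ± 0.22.

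Of 25 tested mesenchymal genes 13 were higher, 4 were lower and 8 did not pass. The median log2 fold change was 0.54, or 0.31 in the EpCAM-negative libraries with the least Epcam and 0.29 without EpCAM-negative library 1. Vimentin (Vim), the intermediate filament of mesenchymal cells, went from 1197 (1032 to 1504) to 2895 CPM (2531 to 3289.7) (log2 fold change 1.27 ± 0.11, adjusted p = 1.8e-09). Fibronectin (Fn1) went from 6010.5 (4489.6 to 6484) to 13162 CPM (10250.2 to 17618) (log2 fold change 1.20 ± 0.16, adjusted p = 1.3e-06), and Itga5, the α chain of its receptor, from 232 (189 to 284) to 756 CPM (652 to 849) (1.69 ± 0.12). None of the 3 overlapped. The neural adhesion molecule Ncam1 went from 169 (136 to 200.5) to 521 CPM (410.2 to 576) (1.60 ± 0.12), and the receptor tyrosine kinase Axl from 453 (397 to 568) to 855 CPM (717 to 1084) (0.89 ± 0.12), also without overlap. Wnt5a went from 1.34 (0.0519 to 2.26) to 7.34 CPM (3.53 to 19.0) (2.84 ± 0.60). N-cadherin (Cdh2), which often replaces E-cadherin in the transition, was measured from 4.13 (1.90 to 7.46) to 6.03 CPM (1.67 to 12.1) and did not pass (adjusted p = 0.391).

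The 4 mesenchymal members that were lower were Cd44, Bmp1, Tnc and Mmp14. Cd44, the hyaluronan receptor, went from 1169.8 (1048 to 1273) to 657 CPM (593 to 721) (log2 fold change −0.83 ± 0.07, adjusted p = 6.23e-10), and Bmp1, which trims procollagens, from 525 (469 to 632) to 293 CPM (275 to 323) (−0.84 ± 0.10). Tenascin C (Tnc), a matrix glycoprotein of remodelling tissue, went from 614 (457 to 730.1) to 185 CPM (76.2 to 221) (−1.77 ± 0.24), and the membrane metalloprotease Mmp14 from 531 (501 to 584) to 441 CPM (394 to 498) (−0.28 ± 0.08). All 4 were separated between the fractions.

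Other cell types were checked beside these genes. The summed level of 19 fibroblast markers, of which 15 were tested, was 177 to 269 CPM in EpCAM-negative and 80.1 to 238 CPM in EpCAM-positive libraries. Of those tested 3 were higher (Pdgfra, Pdgfrb and Dcn) and none was lower. The sum of 13 pericyte and smooth muscle markers, of which 10 were tested, was 18.5 to 44.7 against 58.9 to 121 CPM. The larger share of the latter came from Notch3, the 1 member that was lower. In that list 4 members were higher (Pdgfrb, Actg2, Acta2 and Rgs5), and the median log2 fold change was 1.90. Rgs5 was at most 1.00 CPM in EpCAM-negative libraries and had no count in EpCAM-positive ones. It lost the call without EpCAM-negative library 1 or 5 and without any 1 EpCAM-positive library (adjusted p up to 0.0739). Col3a1, the collagen of fibroblasts, did not differ past the threshold, from 57.2 (15.5 to 76.9) to 26.2 CPM (20.4 to 53.5) (adjusted p = 0.231). Dcn, the fibroblast proteoglycan decorin, was higher at low levels, from 1.46 (0 to 5.96) to 6.47 CPM (3.65 to 8.68) (1.78 ± 0.46, or 2.51 without EpCAM-positive library 2). The part of such cells in the mesenchymal genes was not tested.

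Of 31 tested genes for fibrillar collagens and their processing 11 were higher and 6 were lower, with a median of 0.03, or −0.28 with the block. Col5a1, the partner chain of Col5a3, went from 16.3 (12.9 to 28.8) to 167 CPM (102 to 215) (log2 fold change 3.16 ± 0.23, adjusted p = 1.31e-10), without overlap. P3h1, which hydroxylates collagen prolines, went from 1.79 (0.697 to 3.22) to 11.1 CPM (4.36 to 13.8) (2.41 ± 0.30). Col11a1, a minor fibrillar collagen of cartilage, moved in the opposite direction to collagen V, from 27.7 (11.1 to 38.8) to 1.20 CPM (0 to 2.26) (−4.41 ± 0.41), also without overlap.

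Collagens and laminins of basement membranes and their neighbours had 5 members higher and 10 lower among 29 tested, with a median of −0.12, or −0.66 in the EpCAM-negative libraries with the least Epcam and 0.022 without EpCAM-negative library 2, and 8 were higher with the block. The 5 higher members were the beaded collagen chains Col6a1, Col6a2 and Col6a3, with Col12a1 and Col17a1. Col6a1 went from 22.7 (12.8 to 49.3) to 351 CPM (174 to 407) (log2 fold change 3.68 ± 0.31, adjusted p = 9.77e-10), Col6a2 from 3.05 (1.82 to 8.24) to 41.9 CPM (19.3 to 55.3) (3.30 ± 0.38) and Col6a3 from 3.50 (0.557 to 5.84) to 62.3 CPM (32.3 to 87.9) (4.18 ± 0.50). None of the collagen VI chains overlapped, and the EpCAM-positive mean of Col6a1 was 7.79% of the EpCAM-negative mean. Lama3, a chain of the laminin on which epithelial cells rest, went from 948 (683 to 1253) to 110.2 CPM (38.3 to 148) (−3.20 ± 0.29). Lamb3, another laminin chain of epithelia, had a smaller log2 fold change, from 1144 (987 to 1375) to 743 CPM (581 to 848) (−0.65 ± 0.11). Col8a1, a short-chain network collagen, was lower, from 116 (85.6 to 184) to 14.5 CPM (10.4 to 22.4) (−3.03 ± 0.25).

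Of 32 tested matricellular proteins and proteoglycans 11 were higher and 4 were lower. Tgfbi, a collagen-binding protein induced by TGF-beta, went from 15.4 (10.8 to 22.99) to 93.1 CPM (63.1 to 158) (log2 fold change 2.74 ± 0.29, adjusted p = 4.17e-08). Efemp2, needed for elastic fibres, went from 5.14 (4.62 to 7.95) to 14.4 CPM (10.7 to 20.1) (1.45 ± 0.19), and Ccn3 from 2.00 (1.14 to 4.01) to 9.10 CPM (6.57 to 15.8) (2.12 ± 0.38). The lower members were Tnc, thrombospondin 1 (Thbs1, from 2315 to 1014 CPM, −1.20 ± 0.17), the syndecan Sdc4 (from 707 to 349.7 CPM, −0.94 ± 0.09) and Fbln5 (from 7.88 to 1.45 CPM, −2.48 ± 0.32). All 7 genes named here were separated between the fractions. Osteopontin (Spp1) went from 31122 (26505 to 35713) to 43474 CPM (30019 to 49252), with overlap (log2 fold change 0.42 ± 0.15, adjusted p = 0.0358), and lost the call in 7 of the 12 fits that left out 1 library, with adjusted p-values of up to 0.0944.

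Of 19 tested integrin chains 3 were higher (Itga5, Itgb7 and Itga7) and 7 were lower. The lower ones included Itga3 and Itgb4, which form receptors for these laminins, at from 1265 (1166 to 1421) to 589.5 CPM (525 to 742) (log2 fold change −1.05 ± 0.10, adjusted p = 5.57e-09) and from 1311 (1069 to 1530.0) to 720.2 CPM (535 to 834) (−0.84 ± 0.10). Itga8 went from 82.2 (62.9 to 125) to 18.6 CPM (9.38 to 28.1) (−2.25 ± 0.23) and Itgb8, which activates latent TGF-beta, from 62.9 (48.0 to 72.5) to 16.4 CPM (13.4 to 21.6) (−1.82 ± 0.14). The fractions did not overlap for any of these 4 chains.

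Metalloproteases and their inhibitors were 9 higher and 8 lower of 27 tested. The secreted proteases at the head of the list were lower: Mmp9 (gelatinase B) went from 200.2 (137 to 322) to 18.5 CPM (12.7 to 31.2) (log2 fold change −3.34 ± 0.37, adjusted p = 8.63e-08) and Mmp3 (stromelysin 1) from 1282 (971 to 1599.6) to 194 CPM (164 to 225) (log2 fold change −2.71 ± 0.26, adjusted p = 7.85e-09). The inhibitors Timp3 and Timp2 were higher, from 35.4 (25.3 to 41.0) to 144 CPM (111 to 180.0) (2.07 ± 0.14) and from 991 (875 to 1059.7) to 1463 CPM (1321 to 1664) (0.61 ± 0.10), and so was Mmp19, from 8.24 (6.54 to 15.0) to 27.3 CPM (15.6 to 34.5) (1.37 ± 0.23). None of the 5 overlapped.

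Among 23 tested contractile and focal adhesion genes 6 were higher and 2 were lower. Vinculin (Vcl), which links integrins to actin, went from 282 (209 to 329.9) to 586 CPM (506 to 641) (log2 fold change 1.08 ± 0.11, adjusted p = 3.87e-08), Zyx from 432 (387 to 487) to 597 CPM (569 to 687) (0.51 ± 0.09) and Tagln2 from 419.7 (326 to 482) to 638 CPM (589.5 to 819) (0.69 ± 0.11). Tpm2, a tropomyosin, went from 234 (223 to 288) to 108 CPM (101 to 143) (−1.06 ± 0.10), and the actin crosslinker Actn4 from 1639.8 (1444 to 1803) to 1237 CPM (1188 to 1361) (−0.38 ± 0.08). Each of these 5 genes was separated between the fractions.

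Of 30 tested genes of TGF-beta and BMP signalling 15 were higher and 5 were lower, with a median of 0.36. TGF-beta ligands signal through type I and type II receptors to SMAD2 and SMAD3. Among ligands Tgfb1 was higher, from 21.0 (19.8 to 23.9) to 35.3 CPM (25.5 to 40.7) (log2 fold change 0.67 ± 0.11, adjusted p = 1.97e-05), Tgfb3 was lower, from 288 (222 to 297) to 199 CPM (141 to 221) (−0.51 ± 0.10), and Tgfb2 was low and did not pass, from 1.01 (0.149 to 2.34) to 1.15 CPM (0.666 to 1.61). The co-receptor Tgfbr3 went from 16.2 (13.0 to 23.97) to 50.9 CPM (39.5 to 57.1) (1.49 ± 0.20) and the signal transducer Smad3 from 96.1 (76.8 to 118) to 185 CPM (159 to 259.9) (1.02 ± 0.12). The target gene Id1, an inhibitor of basic helix-loop-helix factors, went from 32.2 (24.9 to 46.4) to 78.1 CPM (46.8 to 108) (1.17 ± 0.19). All of these except Tgfb2 were separated between the fractions.

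The receptors for platelet-derived growth factor were higher in the EpCAM-negative cells. Pdgfra went from 30.1 (19.4 to 36.0) to 109.7 CPM (75.0 to 143) (log2 fold change 1.95 ± 0.17, adjusted p = 1.7e-09) and Pdgfrb from 1.23 (0.853 to 2.79) to 10.8 CPM (5.85 to 16.4) (log2 fold change 2.96 ± 0.29, adjusted p = 1.36e-08), and the ligand Pdgfa from 107 (103 to 129) to 208 CPM (191 to 252) (0.96 ± 0.10). None overlapped, and the mean of Pdgfra in the EpCAM-positive libraries was 25.8% of the EpCAM-negative mean. The whole PDGF and FGF list had 6 members higher and 4 lower of 22 tested. Fgfbp1, a carrier of FGFs, went from 73.6 (55.6 to 96.2) to 6.07 CPM (0.742 to 10.4) (−3.59 ± 0.41), and the inhibitor Spry1 from 145 (117 to 161) to 73.1 CPM (56.0 to 99.0) (−0.91 ± 0.12). Both were separated between the fractions.

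EGF receptors and ligands, the family of Her2, were 6 higher and 4 lower of 15 tested. The receptor Erbb3, the main partner of Her2, went from 105 (65.1 to 121) to 9.38 CPM (0.611 to 14.2) (log2 fold change −3.45 ± 0.44, adjusted p = 7.43e-07). Among ligands, Tgfa was lower, from 394 (249 to 425) to 124 CPM (102 to 161) (−1.50 ± 0.19), while Btc was higher, from 6.14 (3.02 to 6.93) to 31.4 CPM (23.9 to 39.9) (2.50 ± 0.30), and Hbegf was higher, from 154 (115 to 193) to 291 CPM (219.9 to 479) (1.03 ± 0.18). The fractions did not overlap for these 4 genes.

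Wnt genes were 8 higher and 9 lower of 33 tested, with a median of −0.16 that lay between −0.30 and 0.065 when 1 library was left out. Among receptors of the Frizzled family Fzd7 (from 90.0 to 26.5 CPM, −1.91 ± 0.19), Fzd6 (from 130.2 to 42.5 CPM, −1.46 ± 0.14) and Fzd5 were lower, and Fzd8 was higher (from 16.1 to 22.2 CPM, 0.43 ± 0.14). The feedback inhibitor Nkd2 went from 189.7 (176 to 237) to 25.5 CPM (8.42 to 44.8) (−2.94 ± 0.25) and the transcription factor Tcf7 from 27.2 (19.0 to 28.1) to 15.0 CPM (9.65 to 18.5) (−0.81 ± 0.14). Fzd7, Fzd6, Nkd2 and Tcf7 did not overlap between the fractions. Notch genes were 2 higher and 4 lower of 16 tested. The receptors Notch1 and Notch3 went from 288 (217 to 319) to 143 CPM (91.5 to 178) (−0.99 ± 0.12) and from 79.5 (53.0 to 117) to 7.28 CPM (2.44 to 13.6) (−3.32 ± 0.55), the ligand Dll1 from 25.8 (20.8 to 29.9) to 7.12 CPM (4.84 to 13.2) (−1.61 ± 0.24) and the target Hey1 from 13.7 (4.96 to 15.0) to 0.746 CPM (0 to 1.32) (−4.10 ± 0.52). These 4 were separated between the fractions, and Hes1, another Notch target, was higher with overlap, from 113 (100.2 to 178) to 192 CPM (148 to 264) (0.72 ± 0.14).

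Guidance cues and their receptors, which steer axons and also epithelial contacts, were 7 higher and 13 lower of 35 tested. Sema3a, a secreted repellent, went from 2.48 (1.35 to 3.55) to 30.2 CPM (20.4 to 45.6) (log2 fold change 3.68 ± 0.23, adjusted p = 1.33e-11), and Ntn4, a netrin, from 5.11 (3.55 to 10.6) to 21.3 CPM (18.5 to 28.8) (1.91 ± 0.24). The semaphorin receptor Plxnb1 went from 127 (96.5 to 159) to 18.7 CPM (10.1 to 22.1) (log2 fold change −2.90 ± 0.17, adjusted p = 3.96e-12), the ephrin receptor Ephb3 from 125 (93.2 to 157) to 59.3 CPM (48.1 to 71.3) (−1.07 ± 0.11) and the ephrin Efna5 from 89.9 (75.2 to 120.3) to 40.3 CPM (38.9 to 52.5) (−1.13 ± 0.11). No library of either fraction crossed into the range of the other for these 5 genes. Angiogenic factors were 8 higher and 4 lower of 17 tested, with Angpt1 from 5.97 to 20.6 CPM, 1.91 ± 0.25, Angptl2 from 229 to 412 CPM, 0.85 ± 0.13 and Pgf from 814 to 191 CPM, −2.10 ± 0.22.

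Immediate-early genes are switched on by growth factors or stress without new protein synthesis, and had the largest number of higher members among the lists. Of 30 tested 24 were higher and none was lower, with a median log2 fold change of 0.89, and 17 were higher when only the 3 EpCAM-negative libraries with the least Epcam were used. The orphan nuclear receptor Nr4a1 was measured at 352, 452, 157, 118, 292 and 168 CPM in EpCAM-negative libraries 1 to 6 and at 30.2, 45.7, 11.4, 9.91, 23.7 and 15.4 CPM in the EpCAM-positive libraries of the same numbers (log2 fold change 3.50 ± 0.38, adjusted p = 7.42e-08). The fractions did not overlap, and library 2 was the highest in both. Its relative Nr4a2 went from 4.22 (2.62 to 8.52) to 47.5 CPM (19.9 to 75.9) (3.31 ± 0.33), the MAP kinase phosphatases Dusp1 and Dusp5 from 272 (173 to 336) to 825 CPM (577 to 1338) (1.76 ± 0.21) and from 118 (83.0 to 151) to 367 CPM (235 to 560.4) (1.75 ± 0.20), and Ier5 from 72.3 (64.6 to 113) to 201 CPM (159 to 292) (1.41 ± 0.17). The zinc finger factors Egr1 and Klf2 went from 978 (841 to 1124) to 2011 CPM (1464 to 2359) (1.01 ± 0.14) and from 72.2 (48.9 to 115) to 279 CPM (203 to 321) (1.78 ± 0.23). None of these 6 genes overlapped between the fractions.

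The AP-1 subunits Fos and Jun had smaller log2 fold changes. Fos went from 2526 (1997 to 3025) to 3829 CPM (2842 to 5285) with overlapping ranges (log2 fold change 0.66 ± 0.14, adjusted p = 0.000959) and Jun from 1744 (1490.3 to 1901) to 2212 CPM (1763 to 2685) (log2 fold change 0.34 ± 0.12, adjusted p = 0.0397). Jun lost the call in 9 of the 12 fits that left out 1 library, with adjusted p-values of up to 0.134. Myc was measured from 162 (136 to 221) to 184 CPM (129 to 243) and did not pass (adjusted p = 0.387). Heat shock genes, which respond to protein damage, were mixed, with 1 of 14 tested higher (Hsph1, 0.58 ± 0.16) and 2 lower (Hsp90aa1, −0.46 ± 0.11, and Hsp90ab1, −0.30 ± 0.06), or 3 higher and 4 lower with the block.

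Promoters of Dusp1 and Dusp5 are shown because their genes were among the most strongly higher of this list and hold motifs of signal-dependent factors, with capitals on 1 cAMP response element (TGACGTCA) for Dusp1 and on 2 CArG boxes for Dusp5. Dusp1 lies at chr17:26508473-26508722 on the minus strand, and Dusp5 at chr19:53528895-53529144 on the plus strand, in RefSeq on GRCm38.p6.
Dusp1: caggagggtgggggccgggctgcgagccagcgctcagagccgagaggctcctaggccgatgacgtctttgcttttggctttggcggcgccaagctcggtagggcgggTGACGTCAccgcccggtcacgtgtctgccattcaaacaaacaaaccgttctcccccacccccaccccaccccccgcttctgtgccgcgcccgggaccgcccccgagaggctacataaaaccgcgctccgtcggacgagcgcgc
Dusp5: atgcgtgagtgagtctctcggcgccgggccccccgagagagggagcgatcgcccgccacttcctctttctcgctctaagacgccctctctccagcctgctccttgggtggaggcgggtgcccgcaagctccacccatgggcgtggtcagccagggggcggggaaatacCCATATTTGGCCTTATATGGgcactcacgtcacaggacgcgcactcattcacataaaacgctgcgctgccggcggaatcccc
On both strands of the windows of 300 bases, the CRE was found in 3 of the 24 matched genes of the list (12.5%), against 3.39% of the matched tested genes, and the CArG box in 4 of 24 (16.7%) against 1.59%. Among the 18 matched genes that were higher, the CRE was found in 3 (16.7%) and the CArG box in 2 (11.1%).

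**Figure D4:**
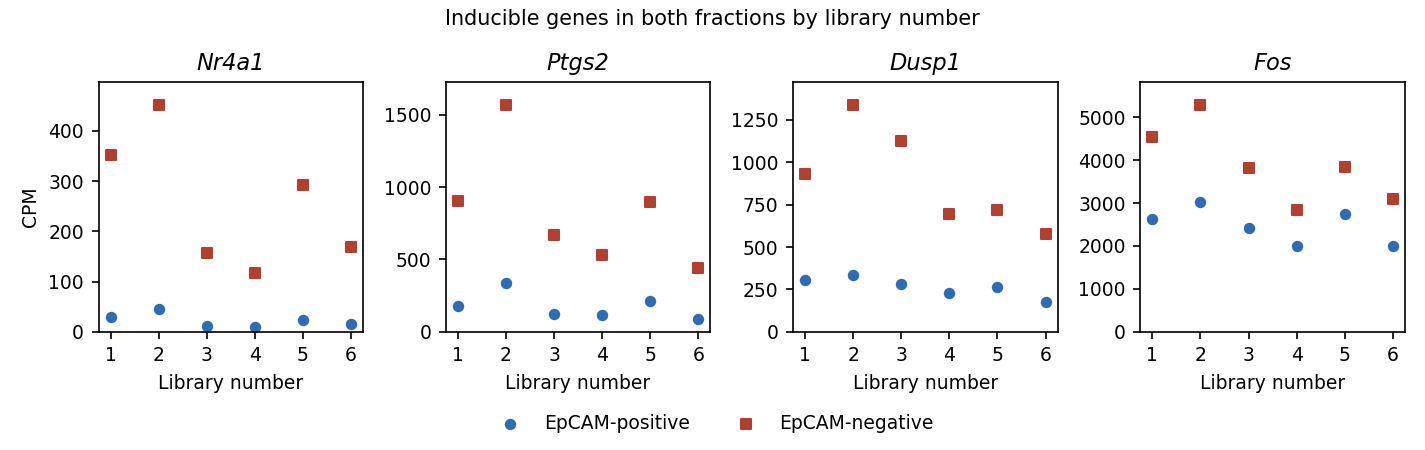
CPM of Nr4a1, Ptgs2, Dusp1 and Fos by library number, with EpCAM-positive libraries as circles and EpCAM-negative libraries as squares (linear axes from 0). At every number the EpCAM-negative library lies above the EpCAM-positive one, and number 2 is the highest in both fractions for all 4 genes.

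NF-κB target and feedback genes were 8 higher and 1 lower of 31 tested. Ptgs2, the inducible cyclooxygenase COX-2, was measured at 902, 1567, 671, 528, 896 and 439 CPM in EpCAM-negative libraries 1 to 6 and at 176, 340.1, 126, 113, 214 and 91.8 CPM in the EpCAM-positive ones (log2 fold change 2.24 ± 0.33, adjusted p = 6.16e-06). Every EpCAM-negative library was above every EpCAM-positive library. Tnfaip2 went from 40.9 (30.8 to 58.1) to 204 CPM (182 to 275) (2.31 ± 0.18), the inhibitor Nfkbia from 57.9 (49.7 to 89.6) to 132 CPM (103 to 237) (1.32 ± 0.24) and the subunit Relb from 13.9 (10.4 to 17.0) to 21.6 CPM (18.4 to 22.8) (0.62 ± 0.12), all without overlap. The member that was lower was Lcn2, given above.

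Of 21 tested glycolysis genes 14 were higher and none was lower, with a median of 0.45. Eno2, an enolase, went from 22.04 (14.8 to 32.1) to 69.5 CPM (54.4 to 87.5) (log2 fold change 1.66 ± 0.20, adjusted p = 3.7e-07), the isomerase Gpi1 from 288 (270.4 to 336) to 497 CPM (441 to 578) (0.76 ± 0.11) and Pgam1 from 13.9 (11.9 to 15.6) to 20.9 CPM (19.0 to 27.9) (0.66 ± 0.11). Pfkfb4, which tunes the rate of glycolysis, went from 8.44 (7.41 to 11.6) to 19.8 CPM (17.3 to 25.5) (1.24 ± 0.22), and lactate dehydrogenase Ldha from 1431 (1369 to 1479) to 1858 CPM (1738 to 2002) (0.39 ± 0.08). The fractions did not overlap for any of the 5. Of 22 hypoxia-response genes 11 were higher and 1 was lower (Adm, −0.98 ± 0.22), with 7 higher without EpCAM-negative library 6 or without EpCAM-positive library 3. Hilpda, a lipid droplet protein, went from 11.7 (9.13 to 12.9) to 55.5 CPM (34.6 to 78.1) (log2 fold change 2.29 ± 0.23, adjusted p = 1.76e-08), the mitophagy receptor Bnip3 from 32.5 (31.1 to 42.8) to 85.4 CPM (64.3 to 114) (1.32 ± 0.19) and Higd1a from 21.9 (17.1 to 23.5) to 36.4 CPM (29.4 to 46.6) (0.82 ± 0.12). The oxygen sensor Egln1 and the kinase Pdk1, which diverts pyruvate from mitochondria, went from 108 (82.1 to 120.3) to 176 CPM (143 to 197) (0.76 ± 0.10) and from 39.9 (36.6 to 50.1) to 65.2 CPM (58.7 to 87.4) (0.76 ± 0.11). These 5 genes were separated between the fractions too.

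Few nuclear genes of the respiratory chain passed the test. Of 30 nuclear subunit genes 1 was higher (Sdhb, 0.25 ± 0.08) and 2 were lower (Ndufa4, −0.80 ± 0.10, and Cox4i1, −0.44 ± 0.10), and Sdhb lost the call without EpCAM-negative library 1 or 5 (adjusted p = 0.0515 and 0.0535). Of 13 listed genes of the mitochondrial genome, 6 had no count in any of the 12 libraries (mt-Atp6, mt-Atp8, mt-Co2, mt-Co3, mt-Nd3 and mt-Nd4l). The cause was not tested, so the list does not describe the whole mitochondrial genome. Of the 7 tested genes 6 were lower, such as mt-Nd4, from 341 (205 to 461) to 216 CPM (158 to 238) (log2 fold change −0.68 ± 0.15, adjusted p = 0.0011), and mt-Cytb, from 1982 (1288 to 2419) to 1442 CPM (1218 to 1500.1) (−0.46 ± 0.13). The ranges overlapped for the 5 of these with the smallest p, and 3 of the 7 were called lower with only the 3 EpCAM-negative libraries with the least Epcam, while the median log2 fold change was −0.51 in both fits.

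In lipid synthesis 3 of 21 tested genes were higher and 7 were lower. Srebf1, the regulator of fatty acid synthesis, went from 203 (141 to 243) to 97.0 CPM (95.6 to 108) (log2 fold change −1.0 ± 0.15, adjusted p = 1.15e-05), fatty acid synthase Fasn from 392 (383 to 594) to 278 CPM (178 to 325) (−0.70 ± 0.12), Acly from 508 (447 to 599) to 378 CPM (342 to 423) (−0.47 ± 0.07) and the desaturase Scd2 from 996 (797 to 1119) to 608 CPM (484 to 712) (−0.70 ± 0.10). Scd1, the other desaturase, went in the opposite direction, from 104 (71.3 to 129) to 246 CPM (132 to 378) (1.32 ± 0.22). All 5 were separated between the fractions. Genes of the unfolded protein and amino acid stress responses were 8 higher and 4 lower of 23 tested. The lower members were the endoplasmic reticulum proteins Hsp90b1 (from 1810.2 to 1323 CPM, −0.50 ± 0.06), Sdf2l1 (from 43.7 to 28.7 CPM, −0.54 ± 0.10) and Creld2 and the stress sensor Sesn2 (from 73.4 to 59.8 CPM, −0.43 ± 0.13), and the higher ones included Nupr1 (from 229 to 413 CPM, 0.85 ± 0.16), Atf5 (from 3.47 to 8.38 CPM, 1.05 ± 0.21) and Shmt2 (from 109.6 to 141 CPM, 0.42 ± 0.08). NRF2 and redox genes were 5 higher and 4 lower of 19 tested, with Srxn1 from 79.1 to 141 CPM, 0.93 ± 0.12, Gstm1 from 0.826 to 3.89 CPM, 2.15 ± 0.28, Cat from 223 to 141 CPM, −0.63 ± 0.11, Gsta4 from 21.2 to 10.8 CPM, −1.01 ± 0.16 and Gclc from 102 to 73.1 CPM, −0.41 ± 0.08.

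Of 30 mitotic genes 11 were lower and none was higher, with a median of −0.40. Ccnb2, a cyclin of mitotic entry, went from 92.6 (80.8 to 119.9) to 52.9 CPM (43.9 to 58.4) (log2 fold change −0.90 ± 0.19, adjusted p = 0.000481), Cdc20, which activates the anaphase complex, from 62.0 (56.8 to 75.5) to 36.8 CPM (32.6 to 52.6) (−0.74 ± 0.19) and the kinesins Kif20a and Kif23 from 111 (92.4 to 132) to 68.6 CPM (59.5 to 82.9) (−0.69 ± 0.17) and from 83.5 (72.6 to 115) to 44.0 CPM (38.0 to 64.0) (−0.91 ± 0.18). Cdc25c went from 26.6 (22.95 to 35.2) to 14.3 CPM (8.14 to 17.2) (−1.01 ± 0.24). None of the 5 overlapped. Mki67, the proliferation antigen, was measured from 65.6 (54.8 to 96.3) to 48.2 CPM (31.2 to 59.5) with overlap and did not pass (log2 fold change −0.59 ± 0.24, adjusted p = 0.0698), but passed with the block (adjusted p = 0.0224). The count of lower mitotic genes was 17 in the fit of the 12 libraries with the block and 3 when only the 3 EpCAM-negative libraries with the least Epcam were used, with a median of −0.30. In that smaller fit Cdc20 was at −0.63 and Kif20a at −0.54.

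Of 30 genes of DNA replication and the G1/S step 8 were lower and 1 was higher (Cdc45, 0.33 ± 0.12), with a median of −0.31. Cyclin D1 (Ccnd1) went from 971 (930.2 to 1127) to 791 CPM (700.4 to 851) (log2 fold change −0.36 ± 0.08, adjusted p = 0.000793), the replicative helicase subunit Mcm5 from 68.2 (60.6 to 86.1) to 45.6 CPM (41.8 to 51.8) (−0.61 ± 0.18) and the chromatin assembly factor Chaf1b from 33.6 (27.0 to 41.8) to 21.6 CPM (17.8 to 25.8) (−0.60 ± 0.17), without overlap. Mcm4 was lower at −0.35 ± 0.11, but not without EpCAM-negative library 3 or EpCAM-positive library 5 (adjusted p = 0.053 and 0.0649), and Prim1 at −0.51 ± 0.17. The count of lower members was 14 with the block, 15 with the block in the 12 libraries, 14 in the 12 libraries alone, 5 without EpCAM-positive library 5 and 3 in the EpCAM-negative libraries with the least Epcam.

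Genes of MHC class I, which present peptides to CD8 T cells, were 1 higher and 8 lower of 24 tested. H2-T23, a non-classical class I gene, went from 41.5 (34.4 to 44.1) to 17.0 CPM (14.9 to 20.7) (log2 fold change −1.19 ± 0.12, adjusted p = 2.73e-08), the peptide transporter Tap1 from 44.0 (35.8 to 54.9) to 21.1 CPM (13.3 to 23.03) (−1.14 ± 0.15) and the loading factors Tapbp, Pdia3 and Calr from 442 (439 to 477) to 312 CPM (299 to 352) (−0.50 ± 0.07), from 1669 (1551 to 1762) to 1063 CPM (960.2 to 1131) (−0.67 ± 0.06) and from 1466 (1357 to 1506) to 1051 CPM (916 to 1119) (−0.49 ± 0.07). All 5 were separated between the fractions. B2m, the shared light chain, was measured from 328 (266 to 387) to 354 CPM (269 to 384) and did not pass (adjusted p = 0.802). H2 genes share reads with near copies, and the H2 haplotype of FVB/N is not that of the reference genome. Class II genes were 2 lower of 9 tested (H2-DMb1, from 7.91 to 2.81 CPM, −1.40 ± 0.28, and H2-DMb2, from 5.14 to 2.41 CPM, −1.01 ± 0.28), and Cd74 was measured from 48.7 (23.7 to 60.7) to 55.0 CPM (40.5 to 121) and did not pass.

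Interferon-stimulated genes were 5 higher and 9 lower of 37 tested. The antiviral genes Usp18, Oas1a and Ifih1 were lower, from 4.32 (2.62 to 6.20) to 0.955 CPM (0.477 to 1.44) (−2.17 ± 0.24), from 3.43 (1.71 to 5.68) to 0.465 CPM (0.256 to 1.37) (−2.47 ± 0.42) and from 4.07 (1.44 to 6.13) to 1.38 CPM (0.829 to 2.07) (−1.51 ± 0.29), and the GTPases Gbp2 and Gbp7 were higher, from 26.4 (21.5 to 42.3) to 61.2 CPM (46.9 to 76.8) (1.09 ± 0.18) and from 9.77 (7.73 to 13.5) to 25.9 CPM (21.4 to 31.9) (1.40 ± 0.14). Only Ifih1 overlapped between the fractions among these 5.

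Chemokines and cytokines were 12 higher and 4 lower of 37 tested, with a median of 0.49, or 0.17 without EpCAM-negative library 1. Csf1, the growth factor of macrophages, went from 286 (255 to 345) to 492 CPM (379 to 546) (log2 fold change 0.71 ± 0.14, adjusted p = 0.000402), and Il34, which binds the same receptor, from 12.9 (9.55 to 20.8) to 27.1 CPM (21.0 to 38.4) (1.07 ± 0.17). The neutrophil chemokine Cxcl3 went from 1.77 (0.888 to 3.79) to 10.4 CPM (5.57 to 24.4) (2.51 ± 0.48). Cxcl16 went from 91.5 (81.3 to 109) to 15.0 CPM (7.94 to 21.4) (log2 fold change −2.67 ± 0.22, adjusted p = 9.5e-10), Cxcl14 from 54.4 (37.6 to 74.3) to 15.4 CPM (7.07 to 22.8) (−1.82 ± 0.31) and Il23a from 13.7 (8.52 to 16.8) to 1.30 CPM (0.278 to 2.37) (−3.31 ± 0.63). These 6 genes did not overlap, while Ccl2 was measured from 1.06 (0.133 to 2.39) to 1.20 CPM (0.953 to 3.75) and Cxcl12 from 0 (0 to 0.156) to 0.247 CPM (0 to 0.632), near the floor, and neither passed.

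Ligands that act on immune cells were 6 higher and 8 lower of 25 tested. Vtcn1 (B7-H4), an inhibitory ligand of the B7 family, went from 45.4 (27.8 to 55.3) to 4.66 CPM (0.829 to 7.90) (log2 fold change −3.27 ± 0.35, adjusted p = 4.43e-08), Nectin4 and Nectin2 from 70.5 (53.7 to 80.4) to 6.33 CPM (0.611 to 12.4) (−3.35 ± 0.38) and from 48.9 (48.2 to 53.3) to 18.7 CPM (9.56 to 19.7) (−1.56 ± 0.13), and Lgals9 from 76.7 (70.6 to 111) to 39.8 CPM (33.6 to 55.3) (−0.94 ± 0.13). All 4 were separated between the fractions. Cd274 (PD-L1) was measured from 0.304 (0.223 to 1.29) to 1.41 CPM (0.301 to 2.14) and Nt5e (CD73), which makes adenosine, from 1609 (1375 to 1696) to 1419 CPM (1206 to 1708), and neither passed (adjusted p = 0.162 and 0.329). Complement genes were 2 higher and 3 lower of 15 tested, with C1s1 from 1.70 to 15.5 CPM, 3.01 ± 0.28, C1ra from 9.71 to 18.3 CPM, 0.94 ± 0.16, C3 from 1006 to 329 CPM, −1.56 ± 0.20, Clu from 1509.8 to 199.8 CPM, −2.91 ± 0.24 and Cd59a from 18.9 to 9.46 CPM, −1.06 ± 0.18.

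Markers of other cells in the tumour were measured in both fractions. The summed level of 21 macrophage markers was 249 to 570 CPM in EpCAM-negative and 241 to 364 CPM in EpCAM-positive libraries. Among these, Trem2 and Cd163 were higher (from 5.62 to 16.7 CPM, 1.48 ± 0.34, from 0.746 to 2.13 CPM, 1.37 ± 0.44), although Cd163 lost the call without EpCAM-negative library 2 or EpCAM-positive library 5 (adjusted p = 0.0506 and 0.0525). Csf1r, the receptor of Csf1, was lower, from 66.7 (58.7 to 88.0) to 14.6 CPM (12.3 to 26.7) (log2 fold change −2.05 ± 0.27, adjusted p = 1.64e-06), without overlap. All 6 EpCAM-negative libraries lay below all 6 EpCAM-positive libraries for Cd68, from 20.8 (19.6 to 22.5) to 15.2 CPM (11.6 to 19.2), which passed with the block alone (adjusted p = 0.0718, or 0.0358 with the block). The 25 leukocyte markers, of which 12 were tested, summed to 18.9 to 41.2 against 13.8 to 29.1 CPM. Among them the T-cell receptor gene Trac was higher, Ly6g was lower and the other 10 tested did not pass. Cd3e, Cd8a and Nkg7 had no count in the 12 libraries. The 20 endothelial markers, of which 19 were tested, summed to 99.7 to 141 against 390 to 503 CPM. Ly6c1, the 1 member that was lower, made up most of these sums (from 393 to 70.7 CPM, −2.39 ± 0.14). Flt1 (from 8.98 to 24.3 CPM, 1.47 ± 0.29) and Pecam1 (from 0.257 to 1.51 CPM, 2.06 ± 0.57, or 2.75 without EpCAM-positive library 6) were higher, Pecam1 at no more than 2.21 CPM, and the median log2 fold change of the endothelial list was 0.40. The part of these cells in the immune genes above was not tested.

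The same contrast in the control tumours was set against this one, as the difference of the 2 log2 fold changes, depleted minus control. The groups differ in T-cell depletion and in the day of harvest, 20 against 47, and these cannot be told apart. Of the tested genes 1553 had a positive difference (9.33%) and 1446 a negative one (8.69%). Among junction genes 16 were positive and 3 negative, and among keratins and desmosome genes 14 and 1. A positive difference of a lower gene means that it was less reduced in EpCAM-negative cells of depleted tumours. Esrp1 differed by 4.46 ± 0.62 (adjusted p = 1.13e-05), with mean levels of 0.267 and 79.8 CPM in EpCAM-negative and EpCAM-positive control libraries. Krt14 differed by 2.63 ± 0.21, and Pard6b by 7.41 ± 1.06 on a control EpCAM-negative mean of 0. For Cdh1 the sign was opposite, −1.05 ± 0.26 (adjusted p = 0.006), from a control log2 fold change of −2.49. The Epcam share given above moved with the junction genes, and its part in these differences was not tested.

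Mesenchymal genes were 5 positive and 7 negative, and the change of Vim (0.15 ± 0.15), Snai1 (−0.09 ± 0.19) and Erbb2 (0.01 ± 0.13) did not differ past the threshold (adjusted p = 0.572, 0.82 and 0.976). Zeb1 had a larger rise in depleted tumours, by 2.49 ± 0.31 (adjusted p = 2.61e-06), and so had Zeb2, by 1.10 ± 0.36. Immediate-early genes were 21 positive and none negative, hypoxia genes 12 and none, and glycolysis genes 9 and none, with Fos at 0.98 ± 0.20, Egr1 at 1.12 ± 0.20 and Bnip3 at 1.80 ± 0.26. Mitotic genes were 24 negative of 30 and none positive, with Kif20a at −2.09 ± 0.25, Ccnb2 at −1.95 ± 0.26 and Mki67 at −1.43 ± 0.34. Mmp3 differed by −4.78 ± 0.36: in depleted tumours it was lower in the EpCAM-negative cells (−2.71 ± 0.26), and in control tumours it was higher (2.07, from 572 to 2402 CPM on average). Clu, Itga8 and Cxcl14 differed in the same direction, by −3.18 ± 0.32, −3.65 ± 0.31 and −3.67 ± 0.44. Macrophage markers were 9 positive and none negative of 21.

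**Figure D5:**
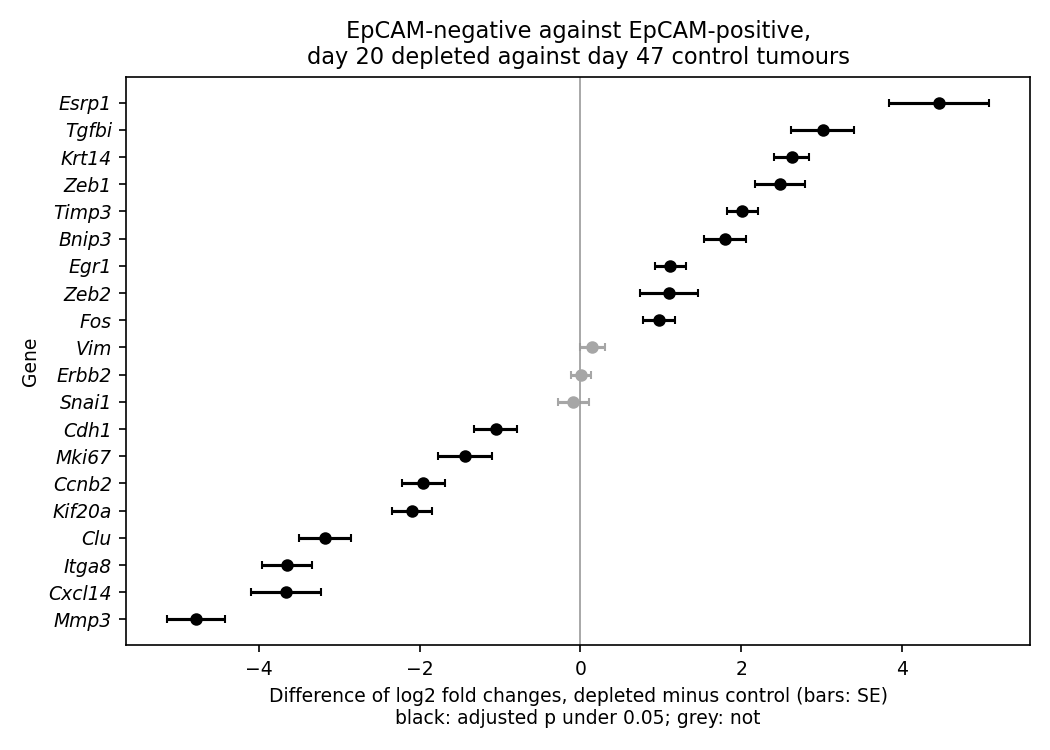
Difference of the EpCAM-negative against EpCAM-positive log2 fold change, depleted minus control tumours, for 20 genes (points, with SE as bars; black for an adjusted p under 0.05 and grey otherwise). Esrp1, Krt14 and Zeb1 lie to the right of 0, Vim, Erbb2 and Snai1 near 0, and Ccnb2, Itga8 and Mmp3 to the left.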

How the data were processed

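RNA of sorted tumour cells was amplified with the SMARTer v4 kit from 0.1 to 1.0 ng and sequenced as single reads of 50 bases on a HiSeq 1000, per the labels' protocols, without molecular identifiers or strand. The raw counts of reads by gene that the authors deposited were aligned with STAR to mm9, per the submitters' processing notes. Its version, how reads were counted, with which annotation and whether by strand are points not given in the sources used here, and genes that overlap cannot be told apart. A second deposited table on a log2-like scale, for which those notes name DESeq2 1.22.2, was not used.

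Samples were grouped by title. The counts of all 26 libraries (5 groups) were fitted with edgeR 4.0.16 in R 4.3.3: filterByExpr, which kept 16637 of 47730 features, TMM scaling, 1 coefficient per group and the quasi-likelihood test with 21 residual degrees of freedom. Calls used a Benjamini-Hochberg adjusted p under 0.05 over all 16637 genes. A run on counts simulated from the fit's own spread, without pairing, checked the code only and does not measure the errors in these data. The median biological coefficient of variation was 22.3%. The alternatives were a fit of the 12 libraries, the library number as a block, DESeq2 1.42.0, other scalings, no filter and each library left out. A fit with the 3 EpCAM-negative libraries lowest in Epcam (2, 4 and 5) was added after the data were seen.

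Genes were named by rule: the 12 largest changes either way among separated genes at 10 CPM or more in the higher fraction, the 8 largest at 200 CPM or more, up to 5 members of each list with the smallest p, 47 genes given whether or not they passed, and the 6 largest differences from control tumours in each direction. Klf4, Klf5, Krt7, Fzd8, Sesn2, Flt1, Snai3, Fosl1, Hmga2, Crb3, Lsr, Ap1m2, Rab25, Lamb3, Col6a3, Mmp14, Adm, Cdc45 and other members named only in a count were chosen after their values were seen. A few genes that the rule names are not reported here. The comparison and the lists were chosen with earlier results of these data known. Principal components used log2 (CPM + 0.5).

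The series states that both fractions were sorted from each tumour. Deviations from the group means of same-numbered depleted libraries correlated at 0.108 to 0.294 over 9080 genes with at least 10 CPM, against −0.26 to 0.129 for other pairs. Over all 16637 genes the values were 0.0175 to 0.0469 and −0.092 to 0.0732. The ranges overlapped in both sets, so that the numbers pair the libraries is an assumption. The main fit did not use it, and the fits with the block did. A floor of 3 counts covers counting error only. Promoters came from RefSeq on GRCm38.p6, and no mm9 coordinates were used.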

Additional observations from a re-analysis of the deposited data

Results flagged for a closer look

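In 9 of 153 groups of 6 libraries, from 95 genes with a mean of at least 1 CPM in a fraction, 1 library stood apart from the other 5 by Dixon's criterion. Chance meets it in about 1 of 20 groups, so about this many flags arise by chance. The highest EpCAM-negative library stood apart for Cldn4 at 70.3 CPM, for Slitrk6 at 22.2 CPM and for Ccl2 at 3.75 CPM. The highest EpCAM-positive library stood apart for Snai2 at 6.17 CPM and for Pdgfrb at 2.79 CPM. The lowest EpCAM-positive library stood apart for Fn1 at 4490 CPM, 1190002N15Rik at 35.8 CPM, Hey1 at 4.96 CPM and Them5 at 4.73 CPM.

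The EpCAM-negative against EpCAM-positive log2 fold change differed between depleted and control tumours for 38 of 58 genes checked, with values given as depleted minus control. Of the 58 genes 12 were named for the size of this difference, and among the other 46 it passed for 26, against 18% of all tested genes. Among epithelial genes the difference was 5.37 for Epcam, 4.46 for Esrp1, 3.55 for Ovol1, 6.26 for Ovol2, 5.19 for Krt5, 2.63 for Krt14, 0.71 for Krt8, 8.27 for Krt6a, 8.98 for Krt19, 7.41 for Pard6b and 1.15 for Trp63. Cdh1 differed by −1.05. In depleted tumours Krt5 lay near the floor in both fractions, and Ovol1 and Ovol2 lay near it in the EpCAM-negative one. The glycosyltransferase gene Galnt6 differed by 8.18, Ggt6 by 7.91 and Pnpla1 by 10.00, on levels that were near 0 in EpCAM-negative control libraries.

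Mesenchymal and stromal genes differed by 2.49 for Zeb1, 1.10 for Zeb2, 3.07 for Snai2, 1.54 for Pdgfrb, 3.83 for Pecam1 and −0.43 for Tgfb3. Pecam1 was low in both fractions of depleted tumours. Immune genes differed by 2.08 for Csf1r, 3.78 for Ptprc, 5.40 for Cxcl12, −0.88 for B2m and −0.42 for Nt5e. Cxcl12 lay near the floor in both fractions of depleted tumours, and Ptprc was low in both. The inducible genes Fos, Egr1 and Jun differed by 0.98, 1.12 and 0.79. Mki67 differed by −1.43, RatActivatedNeu by −1.18 and Spp1 by −0.66. The most negative values were −4.78 for Mmp3, −5.37 for Muc15, −5.36 for 9230104L09Rik, −4.93 for Aspg, −4.72 for Pilrb1 and −4.57 for Sec14l5. Muc15 had no count in the 6 EpCAM-negative libraries of depleted tumours, so its value depends on how a count of 0 is fitted.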

How the results depend on the processing

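No named gene that was called changed direction under any alternative, but list medians near 0 did: in at least 1 alternative each, those of fibrillar collagens, PDGF and FGF genes, Wnt, metalloproteases, basement membrane (0.022 without EpCAM-negative library 2) and contractile genes (−0.016 without EpCAM-positive library 3). With the library number as a replicate block on 26 libraries, which pairs the same-numbered libraries of each treatment, 2599 genes were higher and 2555 lower. Values that moved are given here; the cause was not tested. In the fit of the 12 libraries alone the basement membrane median was −0.56, 14 G1/S genes were lower and the NRF2 median was 0.18 (0.27 in the fit of all 26). With the block on 26 libraries the fibrillar collagen median was −0.28, the Wnt median 0.0061, the NRF2 median 0.33, 14 G1/S genes were lower and 8 basement membrane genes higher (5 without the block). With the block on the 12 libraries the basement membrane median was −0.57, the Wnt median −0.29, the NRF2 median 0.18, and 17 mitotic and 15 G1/S genes were lower. Apart from counts of 4 or fewer, no other count of a list moved by over 1.5 times with the block on 26 libraries.

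In the 3 EpCAM-negative libraries with the least Epcam, 1868 genes were higher and 2054 lower, and medians were −3.48 for junction genes, −3.53 for epithelial regulators, 0.074 for factors that drive the transition, 0.31 for mesenchymal genes, −0.66 for basement membrane, −0.21 for metalloproteases (0.24 in all), 0.26 for TGF-beta, −0.38 for Wnt, −0.55 for guidance cues, 0.20 for NF-κB, −0.19 for G1/S genes and 0.25 for chemokines. There, 3 mitochondrial, 3 mitotic and 3 G1/S genes were called lower, with 3 libraries in place of 6 and with medians of −0.51 and −0.30 for mitochondrial and mitotic genes (−0.51 and −0.40 in all 6). Mcm5 was at −0.61 in both fits.

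When each library was left out in turn, 2078 to 2277 genes were higher and 2199 to 2464 lower. Medians ran from 0.21 to 0.60 for factors that drive the transition, 0.29 to 0.68 for mesenchymal genes, −0.10 to 0.29 for metalloproteases, −0.071 to 0.11 for PDGF and FGF genes, −0.30 to 0.065 for Wnt, 0.10 to 0.39 for NF-κB, 0.37 to 0.49 for glycolysis, −0.30 to −0.11 for interferon-stimulated genes, 0.17 to 0.59 for chemokines and 0.14 to 0.31 for NRF2. Between 7 and 11 hypoxia genes were higher and 5 to 9 G1/S genes lower. DESeq2 called 2425 genes higher and 2570 lower, and the fit without a filter 2024 and 2194 of 29504. Counts near 3 per library, 0.116 to 0.167 CPM, limit Twist1, Twist2, Prrx1, Krt5 and Cxcl12.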
